A study of Mus musculus with 8 samples.

Results

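Heme is made in the liver by a chain of enzymes that starts and ends in the mitochondrion, and it is taken apart by heme oxygenase and biliverdin reductase. The genes described here are 9 enzymes of that route, fixed by name: Alas1, Alad, Uros, Urod, Cpox, Ppox and Fech for synthesis, and Hmox1 and Blvrb for breakdown. Each was found as 1 probe set with a single gene symbol, so 9 of the 19938 genes with such a probe set are members and all 9 were measured.

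Hepatocytes are, after red cell precursors, the main site of heme synthesis in the body, and they use most of it for cytochromes P450. The step made by Alas1 sets the rate in liver: its gene is known to be held down by heme itself and by feeding, and to be raised in fasting through the coactivator PGC-1alpha and the factor FoxO1, which insulin restrains through the kinase Akt.

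The livers came from 8 adult male mice that had fasted for 16 h and had then eaten freely for 3 h. The 4 controls carry the genotype label wild type, and the labels do not say whether they carried a floxed allele or Cre. The other 4 carry the genotype label Rictor floxed and are described as a liver-specific knockout; the labels used here do not name the Cre driver, and so not which liver cells lose the gene. Rictor defines mTOR complex 2, a kinase complex that phosphorylates Akt. Total liver RNA was hybridised to 1 whole-transcript Affymetrix array per mouse, and every value below is a log2 RMA level unless called a difference. A difference is the knockout-labelled mean less the control mean (4 arrays each), its SE or 95% interval comes from limma, and its p is adjusted over all named probe sets.

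The labelled genotype was not visible at Rictor itself, which read 9.47, 9.28, 9.23 and 9.64 in controls and 9.15, 9.51, 9.68 and 9.47 in the knockout-labelled group, for a difference of 0.05 (95% interval -0.24 to 0.33). Which exons the probe set covers was not examined, so it does not check the labels, and every direction below rests on them. The 9 measured hepatocyte markers had a mean between 13.77 and 13.85 on all arrays. Both arrays numbered 1 stood apart from their groups: on the first principal component, with 35.5% of the variance, knockout-labelled array 1 lay at -12.9 among controls 2 to 4 (-15.6 to -12.9), control 1 lay at -2.19, and knockout-labelled arrays 2 to 4 lay from 18.4 to 20.4. The main results are therefore also given without them. These arrays were singled out from the values themselves, so a p without them is conditional on that choice and is read only beside the share of all genes that passed in the same fit.

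Short stretches near the start sites of 4 synthesis genes are shown because they hold matches to the motif of NRF1, a factor that ties heme synthesis to mitochondrial gene expression, or to the E-box, a motif that clock factors bind. Sequences are from RefSeq (GRCm38.p6), 5′ to 3′ on the minus strand, which is the strand of all 4 genes, and capitals mark the matched letters.
Alas1, chr9:106247934-106247963, across the start site: cttcggcgcgcGCGTGCGCgcggcaggccg
Alas1, chr9:106247906-106247935, just after the start site: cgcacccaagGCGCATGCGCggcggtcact
Alad, chr4:62519912-62519941, before the start site: cccccacgtggGCTTGCGCttttagagcgg
Uros, chr7:133709322-133709351, before the start site: ggtcacactgcGCCTGCGCgagtcccgccc
Urod, chr4:116994444-116994473, before the start site: actggatcggtCACGTGgttctcaatatgg

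The NRF1 search used GCGCANGC on both strands in windows that lie mostly before a start site and end a little past it. Hmox1 had no window, and the chromosome of Fech was left out for members but kept in the count over all windows. Windows of the other 7 member genes were searched. Of these 11 windows 4 held a match, against 9.95% of all 32851 windows. They belong to Alad, Uros and Alas1. The 2 Alas1 windows overlap and hold the same matches, so they are not separate sites. In the second Alas1 stretch 2 overlapping matches make up the capitals. The E-box letters CACGTG occurred in 4 of the 11 member windows, those of Alad, Urod and Uros, and in 7.15% of all windows. An E-box of Alad stands next to its NRF1 match in the stretch above, in lower case. Neither the cAMP response element TGACGTCA (1.79% of all windows) nor the FoxO motif TGTTTAC (3.65%) occurred in the 11 member windows searched. A match is a description of these letters only.

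The heme synthesis enzymes differed little in mean level between the groups, and none passed the test. Differences of the 7 genes ran from -0.07 to 0.02, and their 95% intervals together spanned -0.30 to 0.22, which in linear terms is 0.815-fold to 1.17-fold. None of the 9 members passed the correction at 0.05 (limma adjusted p from 0.657 to 0.966), in a comparison where 0% of all genes passed it. Without adjustment 0 of 9 members had a limma p under 0.05, against 10.3% of all genes, and in 0 of 9 did the groups fail to overlap, against 4.42% of all genes. Of the 9 members 7 had a lower mean on the knockout-labelled arrays, as did 56.9% of all genes, and the median difference was -0.045 beside -0.020 over all genes. With the array medians made equal, 7 of 9 members and 51.2% of all genes were lower. The 56.9% given here and below therefore depends on the scaling of the arrays. In size, the differences of the 7 synthesis genes stood between the percentiles 12.3 (Fech) and 43.9 (Urod) of all genes, and those of Blvrb and Hmox1 at 80.4 and 93.7.

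Alas1, which joins glycine and succinyl-CoA in the mitochondrion, read 13.40, 13.62, 13.78 and 13.53 in controls. On the knockout-labelled arrays it read 13.54, 13.58, 13.39 and 13.63. All knockout-labelled arrays but the third, which lay just under the lowest control, were within the control range. The means were 13.58 ± 0.16 (SD, n = 4) and 13.53 ± 0.10 (SD, n = 4), a difference of -0.05 (SE 0.08, 95% interval -0.23 to 0.13; limma adjusted p = 0.881, exact permutation p = 0.657). The interval reaches from 0.854-fold to 1.09-fold. Leaving out control 3, the highest array, turned the sign to 0.018. Without both arrays numbered 1 the difference was -0.11 (limma adjusted p = 0.507).

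**Figure D1:**
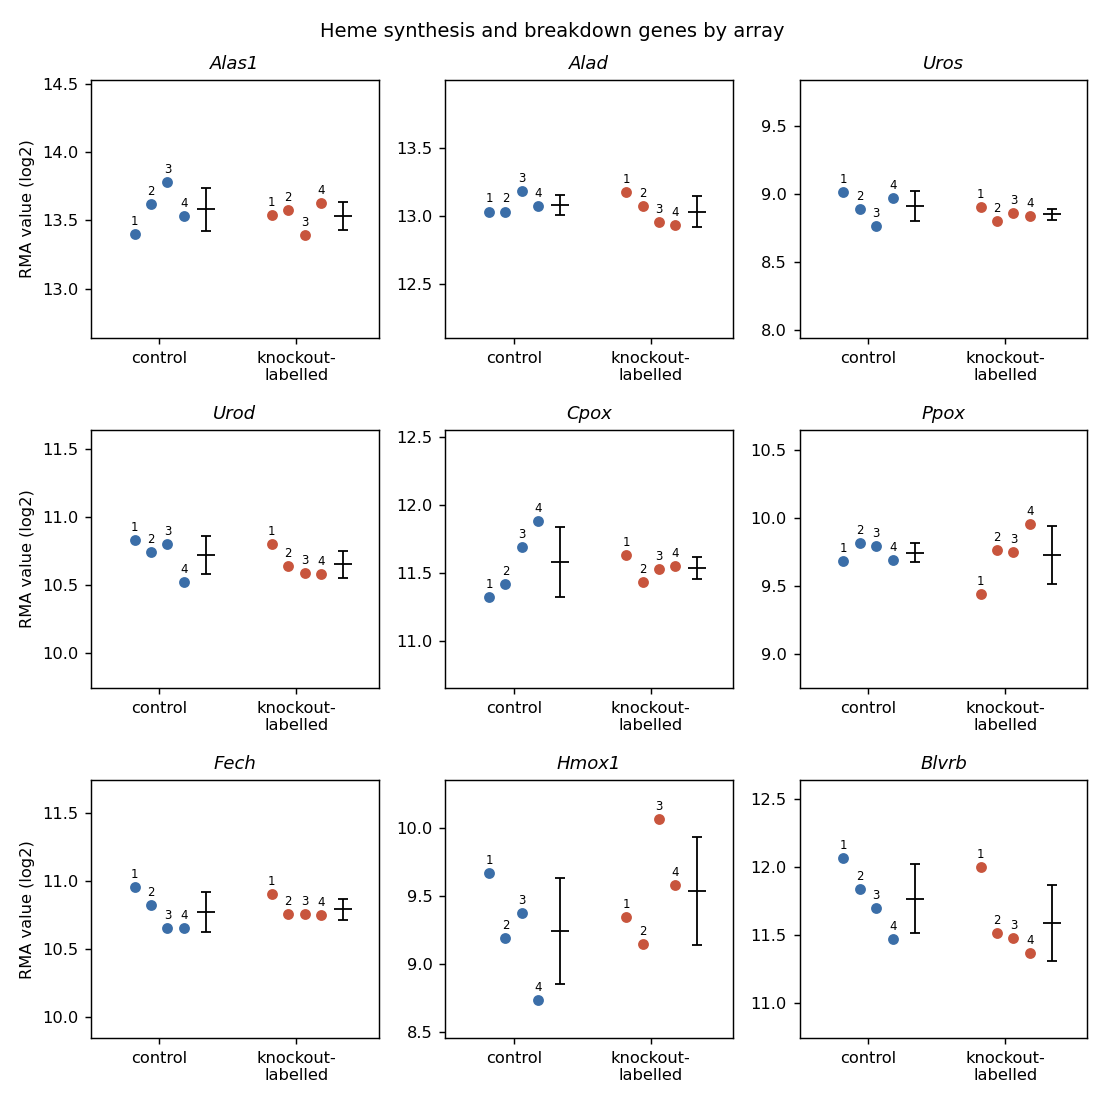
RMA values (log2) of the 9 heme synthesis and breakdown genes on each array, in 9 panels with axes of equal length; points are single mice with their replicate number, and the bar beside them is the mean ± SD of 4 arrays. The groups overlap in every panel, and Hmox1, from 8.74 to 10.07, has the widest spread.

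Alad, the cytosolic enzyme that joins pairs of aminolevulinic acid molecules into porphobilinogen, read 13.03, 13.03, 13.18 and 13.07 in controls and 13.17, 13.07, 12.95 and 12.93 on the knockout-labelled arrays. Its difference was -0.04 (95% interval -0.20 to 0.11), and knockout-labelled array 1 was level with the highest control. Uros closes the tetrapyrrole ring. It read 9.01, 8.89, 8.76 and 8.97 in controls and 8.90, 8.80, 8.86 and 8.84 in the other group, all within the control range, with a difference of -0.06 (95% interval -0.26 to 0.13). Urod, which trims the side chains of that ring and is the last cytosolic enzyme, read 10.83, 10.74, 10.80 and 10.52 in controls and 10.80, 10.64, 10.59 and 10.58 on the knockout-labelled arrays, and its difference was -0.07 (95% interval -0.28 to 0.14). All its knockout-labelled values lay within the control range. None of these 3 genes changed sign when single arrays were left out: Alad ran from -0.09 to -0.01, Uros from -0.11 to -0.03 and Urod from -0.14 to -0.03.

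The last steps take place in the mitochondrion again. Cpox read 11.32, 11.42, 11.69 and 11.88 in controls and 11.63, 11.43, 11.53 and 11.55 on the knockout-labelled arrays, so its spread was larger in controls (SD 0.25) than in the other group (SD 0.08). Its difference was -0.04 (95% interval -0.30 to 0.21), 0.06 without control 4 and -0.16 with both arrays numbered 1 left out (limma adjusted p = 0.478 in the latter). For Ppox, which oxidises protoporphyrinogen, the wider spread lay on the other side: 9.44, 9.76, 9.75 and 9.95 on the knockout-labelled arrays against 9.68, 9.81, 9.79 and 9.69 in controls. Knockout-labelled array 1 was the lowest of all, and the difference of -0.02 (95% interval -0.26 to 0.22) became 0.07 without it. Fech, which inserts the iron, read 10.96, 10.83, 10.66 and 10.66 in controls and 10.91, 10.76, 10.76 and 10.75 in the other group, a difference of 0.02 (95% interval -0.18 to 0.22). In Fech both arrays numbered 1 were the highest of their groups.

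The breakdown enzymes varied more from mouse to mouse than the synthesis enzymes. The SD within groups was 0.395 for Hmox1 and 0.266 for Blvrb, larger than in 98.5% and 94.4% of all genes, whereas for the 7 synthesis genes it ran from 0.0818 to 0.189 beside a median of 0.134 over all genes. Hmox1, the inducible heme oxygenase that opens the ring and releases iron and carbon monoxide, read 9.67, 9.19, 9.38 and 8.74 in controls and 9.35, 9.15, 10.07 and 9.58 on the knockout-labelled arrays. Control 4 was the lowest and knockout-labelled array 3 the highest, with the other 6 arrays mixed between them. The means were 9.24 ± 0.39 (SD, n = 4) and 9.54 ± 0.40 (SD, n = 4), a difference of 0.29 (SE 0.21, 95% interval -0.17 to 0.76; limma adjusted p = 0.657, exact permutation p = 0.400). A rise of up to 1.69-fold lies within that interval, so a moderate change of Hmox1 was not detectable with these arrays. The difference was 0.12 without knockout-labelled array 3 and 0.50 with both arrays numbered 1 left out (limma adjusted p = 0.188).

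Blvrb, a biliverdin reductase that is abundant in red cells and also reduces flavins, read 12.07, 11.84, 11.70 and 11.47 in controls. On the knockout-labelled arrays it read 12.00, 11.52, 11.48 and 11.37. Knockout-labelled array 1 lay near the highest control and the other 3 arrays of its group lay at or near the lowest control. The difference was -0.18 (SE 0.15, 95% interval -0.50 to 0.15; limma adjusted p = 0.718). Without control 1 it was -0.07, and -0.31 without knockout-labelled array 1. With array weights, which limma sets lower for arrays far from their group, Hmox1 differed by 0.44 and Blvrb by -0.28 (limma adjusted p = 0.219 and 0.224); these 2 of 9 members then had an unadjusted p under 0.05, as had 19.8% of all genes. Without both arrays numbered 1 this held for 1 of 9 members, Hmox1, and for 20.0% of all genes.

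Among the 36 pairs of members, Urod and Blvrb followed each other most closely over the 8 arrays (Pearson r = 0.899, exact permutation p = 0.00595; Spearman rho = 0.952, exact permutation p = 0.00114; r = 0.890 without the 2 arrays farthest from the median of Urod, and 0.887 after centring each group). Adjusted over the 36 pairs the exact p of its Pearson r was 0.214, and no pair passed. By Pearson r, 2 pairs had an unadjusted exact p under 0.05. The other was Fech and Blvrb (r = 0.799, exact permutation p = 0.0195; rho = 0.810, exact permutation p = 0.0218; adjusted p = 0.351), and that relation rests on 2 arrays, since r was 0.296 without those farthest from the median of Fech. By Spearman rho, Urod with Fech (0.762) and Cpox with Fech (-0.762) also had an unadjusted exact permutation p under 0.05, 0.0368 for each. Signs were divided over the set, with 17 of 36 Pearson correlations above 0. Alas1 itself gave its most negative r with Uros (r = -0.666, exact permutation p = 0.0676; rho = -0.667, exact permutation p = 0.0831; r = -0.789 without the 2 arrays farthest from its median; adjusted p = 0.571), and r = 0.470 with Alad, the enzyme of the next step (exact permutation p = 0.244; rho = 0.333, exact permutation p = 0.428; r = -0.272 without those 2 arrays; adjusted p = 0.588).

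The genes most like Alas1 over the 8 arrays, out of 5814 searched, were Tnxb, Ivd (isovaleryl-CoA dehydrogenase of leucine breakdown), Zfp324, Sned1 and Inf2, with Pearson r of 0.917, 0.913, 0.905, 0.894 and 0.894. Those most like Hmox1, out of 5813, were Sel1l3, Mmadhc, Blvra, Prkcz and Chmp7, with r of 0.970, 0.968, 0.957, 0.953 and 0.942. All r are descriptions chosen as the highest of many. Blvra, the main liver biliverdin reductase, acts on the product of Hmox1; it read 7.92, 7.73, 7.71 and 7.55 in controls and 7.76, 7.71, 8.02 and 7.94 on the knockout-labelled arrays. Like Hmox1 it was lowest on control 4 and highest on knockout-labelled array 3, and its difference between groups was 0.13 (95% interval -0.09 to 0.36; limma adjusted p = 0.684).

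**Figure D2:**
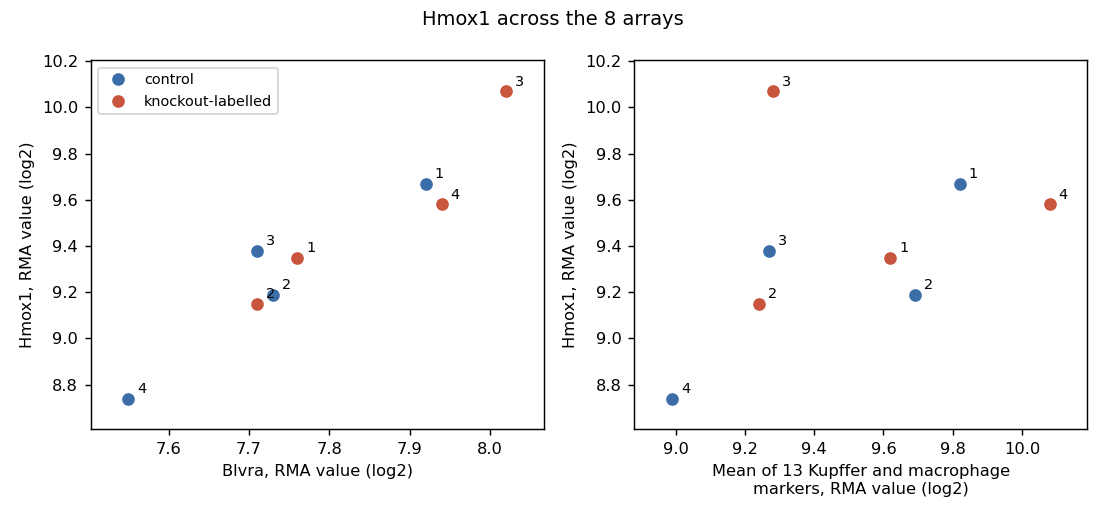
Hmox1 (vertical axis, RMA value, log2) against Blvra and against the mean of the 13 Kupffer cell and macrophage markers (horizontal axes, RMA value, log2) on each of the 8 arrays, labelled by replicate number. Hmox1 and Blvra go together over both groups (r = 0.957), while knockout-labelled array 3 is highest for Hmox1 at 10.07 with a marker mean of 9.28.

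Macrophages that clear red cells, the Kupffer cells of the liver, also make Hmox1. The mean of their 13 markers ran from 8.99 to 9.82 in controls and from 9.24 to 10.08 on the knockout-labelled arrays, lowest on control 4 and highest on knockout-labelled array 4. Of the 13 markers 10 had a higher mean in the knockout-labelled group, as had 43.1% of all genes. Of the 13, 1 had an unadjusted limma p under 0.05, against 10.3% of all genes, and 0 passed. Over the 8 arrays the marker mean and Hmox1 gave r = 0.398 (exact permutation p = 0.324; rho = 0.595, exact permutation p = 0.132; r = -0.0793 without the 2 arrays farthest from the median of the marker mean), and adjusted over the 9 members the p was 0.690. The part of macrophages in the spread of Hmox1 was not tested beyond this relation. In whole liver RNA, fewer cells of a type and less RNA per cell cannot be told apart.

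Other genes of heme handling were read from a list of 29, of which 25 were measured. Of these 14 had a higher and 11 a lower mean on the knockout-labelled arrays, beside 56.9% of all genes lower. The median was 0.045, and 0 passed. An unadjusted p under 0.05 was found for 5 of 25 (4 higher, 1 lower), against 10.3% of all genes, and in 3 of 25 the groups did not overlap, against 4.42% of all genes. Around Alas1, the carrier Slc25a38, which brings glycine into the mitochondrion for the first step, had the largest difference. It read 11.27, 11.37, 11.19 and 11.14 in controls and 11.14, 10.46, 10.20 and 10.49 on the knockout-labelled arrays. The knockout-labelled values were all lower, with array 1 within rounding of control 4 and the other 3 well below. The difference was -0.67 (SE 0.16; limma adjusted p = 0.145, exact permutation p = 0.0286, the smallest that 4 against 4 arrays can give).

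With array weights Slc25a38 passed (-0.83; limma adjusted p = 0.00989), as did 3.38% of all genes. It also passed when knockout-labelled array 1 was dropped (-0.86; limma adjusted p = 0.00224), a fit in which 4.20% of all genes passed, and when both arrays numbered 1 were (-0.85; limma adjusted p = 0.000537), a fit in which 7.24% of all genes passed. None of the 9 members passed in any of these fits. Over its 18 alternatives the adjusted p ran from 0.000537 to 0.655.

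Tspo, an outer mitochondrial membrane protein that binds porphyrins and cholesterol, had the largest difference in the other direction. It read 9.52, 9.18, 9.17 and 9.07 in controls and 9.70, 9.84, 10.06 and 9.68 on the knockout-labelled arrays. All knockout-labelled arrays lay above all controls. Its difference was 0.59 (SE 0.12, limma adjusted p = 0.119, exact permutation p = 0.0286). With array weights it was 0.63 (limma adjusted p = 0.0145, where 3.38% of all genes passed). Once both arrays numbered 1 were dropped it was 0.72 (limma adjusted p = 0.00244, where 7.24% passed). Over 18 alternatives the adjusted p of Tspo ran from 0.00244 to 0.655. Lonp1 encodes a mitochondrial protease and Clpx the unfolding subunit of another. Both are known to take part in degrading Alas1 protein when heme is plentiful. Lonp1 differed by 0.29 (SE 0.11; limma adjusted p = 0.356) and Clpx by 0.25 (SE 0.11; limma adjusted p = 0.413). Lonp1 read 9.66, 9.61, 9.76 and 9.54 in controls and 9.64, 9.95, 10.09 and 10.03 on the knockout-labelled arrays, so only array 1 of that group lay within the control range. Lonp1 passed in 3 of its 18 alternatives and Clpx in none. Without both arrays numbered 1 Lonp1 differed by 0.39 (limma adjusted p = 0.0309, where 7.24% of all genes passed).

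**Figure D3:**
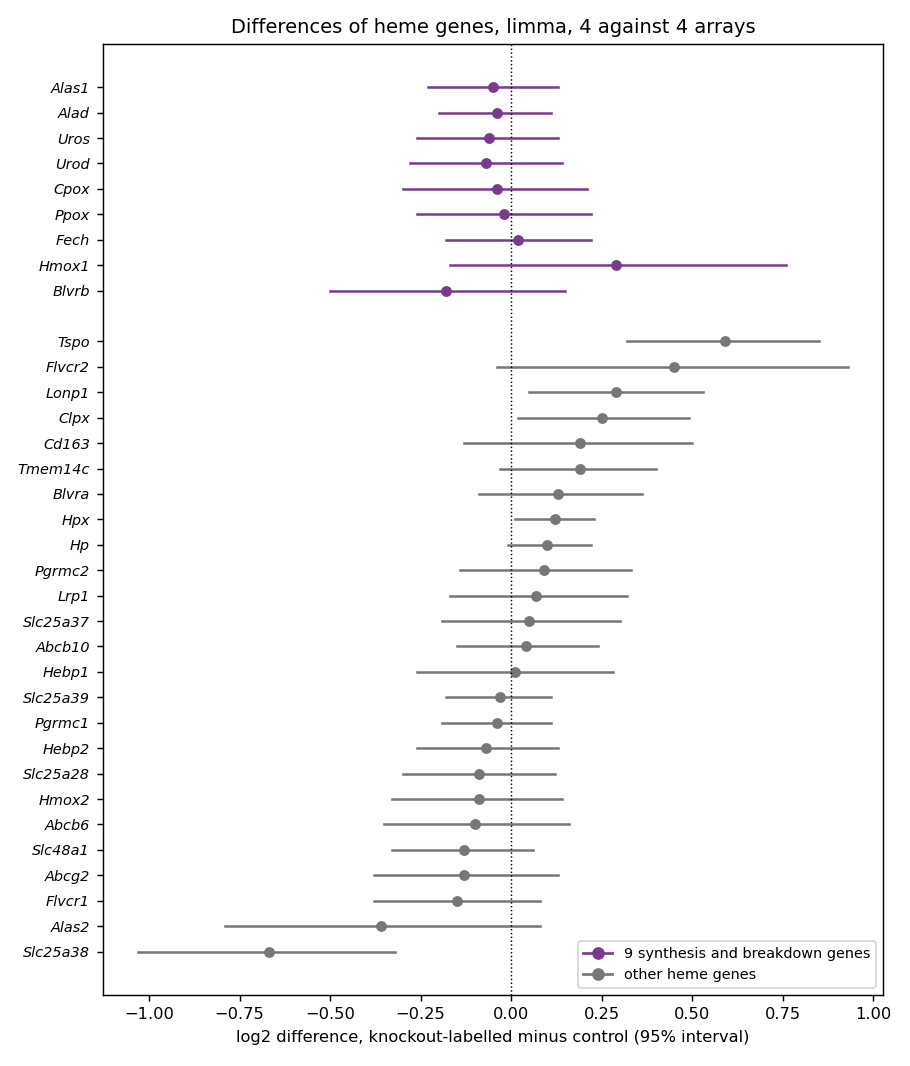
Difference (log2, knockout-labelled minus control) with its 95% limma interval for the 9 members, above, and the 25 other measured heme genes, below, ordered by size. The intervals of all 9 members include 0, and those of Slc25a38 at -0.67 and Tspo at 0.59 lie farthest from it.

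The secreted heme scavenger hemopexin, Hpx, read 13.84, 13.81, 13.87 and 13.73 in controls and 13.95, 13.96, 13.90 and 13.94 on the knockout-labelled arrays. The groups did not overlap, but the difference was small, 0.12 (SE 0.05; limma adjusted p = 0.391), and Hpx passed in none of its 18 alternatives. Hp, the hemoglobin scavenger haptoglobin, differed by 0.10 (SE 0.05; limma adjusted p = 0.503). The constitutive heme oxygenase Hmox2 differed by -0.09 (SE 0.11), and the iron importers of mitochondria, Slc25a37 and Slc25a28, by 0.05 (SE 0.11) and -0.09 (SE 0.10).

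Alas2, the erythroid form of the first enzyme, read 10.29, 10.91, 10.79 and 10.41 in controls and 10.89, 10.01, 10.02 and 10.06 on the knockout-labelled arrays. Array 1 of the second group was among the high controls and its other 3 arrays lay below every control. The difference was -0.36 (SE 0.20; limma adjusted p = 0.545), -0.57 with array 1 of the knockout-labelled group left out (limma adjusted p = 0.0436, where 4.20% of all genes passed) and -0.67 with both arrays numbered 1 left out (limma adjusted p = 0.00535, where 7.24% passed). Car1, a carbonic anhydrase abundant in red cells, differed by -1.18 (SE 0.27; limma adjusted p = 0.129) and by -1.47 and -1.43 in those fits (limma adjusted p = 0.00358 and 0.00119); the erythroid factor Klf1 differed by -0.26 (SE 0.11; limma adjusted p = 0.407). Of the 18 erythroid markers 9 were measured, 5 with a lower mean, beside 56.9% of all genes lower. The mean of the 9 ran from 7.32 to 7.42 in controls and from 7.12 to 7.32 in the other group. The remaining 6, among them Slc4a1 and Epb42, differed by -0.03 to 0.09. These 6 were dim, with control means from 5.53 (Epb42) to 7.11 (Slc4a1) beside array medians of 6.90 to 7.03. Klf1 was little brighter, with a control mean of 7.67. The small differences of these 6 genes and that of Klf1 therefore both say little about erythroid RNA. Over all 9 markers the median difference was -0.023. The globin genes were not analysed here, and the part of blood in the values of Alas2 and Blvrb was not tested.

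**Figure D4:**
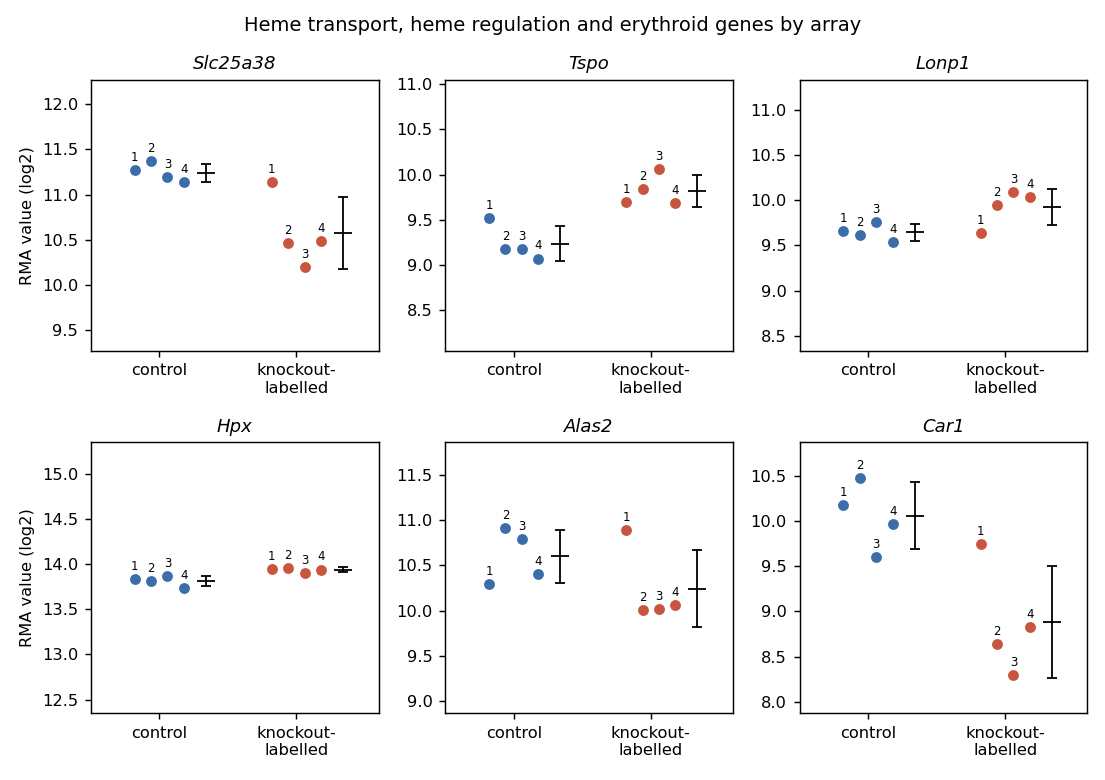
RMA values (log2) by array for Slc25a38, Tspo, Lonp1, Hpx, Alas2 and Car1, on axes of equal length; points are single mice with their replicate number, bars are mean ± SD of 4 arrays. Knockout-labelled array 1 lies nearer the controls than the rest of its group in Slc25a38, Lonp1, Alas2 and Car1, and the groups do not overlap in Slc25a38, Tspo and Hpx.

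Factors that act on Alas1 or Hmox1 were measured as a list of 21 with insulin-dependent genes. Of these 8 had a higher and 13 a lower mean (median -0.06), beside 56.9% of all genes lower, and 0 passed. An unadjusted p under 0.05 was found for 7 of 21 (2 higher, 5 lower; 10.3% of all genes), and in 5 of 21 the groups did not overlap, all of them lower on the knockout-labelled arrays (4.42% of all genes, either direction). For Alas1, some of the factors known to act on it gave differences of -0.03 (SE 0.08) for Nrf1, -0.11 (SE 0.10) for Foxo1 and -0.13 (SE 0.06) for Hnf4a, beside -0.05 for Alas1. On the same list Dbp, Tef and Hlf differed by -0.52 (SE 0.12), -0.25 (SE 0.10) and -0.26 (SE 0.13), and Ppargc1b by -0.13 (SE 0.08). Dbp, Tef and Ppargc1b were among the 5 genes without overlap. Nr1i2 and Nr1i3 differed by 0.08 (SE 0.11) and 0.01 (SE 0.14). For Ppargc1a, the coactivator PGC-1alpha, the brighter probe set gave 0.10 (SE 0.18) and the other 0.60 (SE 0.19; limma adjusted p = 0.269), so its size is not settled. Igfbp1, a liver gene that insulin represses through FoxO1, was high on control 1 (10.04) and low on array 1 of the other group (7.76). It differed by 1.39 (SE 0.62; limma adjusted p = 0.435), and by 2.62 once those arrays were dropped; this second value follows from leaving out the arrays that run against their groups and is a description only. Over the same 6 arrays Alas1 differed by -0.11. Irs2, an insulin receptor substrate that FoxO1 also raises, differed by 0.50 (SE 0.24; limma adjusted p = 0.472) and by 0.94 over those 6 arrays; its values on the arrays left out (9.08 in the control, 8.24 in the other) likewise ran against their groups.

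For Hmox1, its activator Nfe2l2 (NRF2) read 12.09, 11.98, 11.92 and 12.11 in controls and 11.94, 11.54, 11.84 and 11.63 in the other group. Nfe2l2 had the lower mean on the knockout-labelled arrays (-0.29, SE 0.10, limma adjusted p = 0.296), the opposite sign to Hmox1. Nfe2l2 passed in 2 of its 18 alternatives. Among these was the fit without both arrays numbered 1 (-0.33, limma adjusted p = 0.0448, where 7.24% of all genes passed). The repressor Bach1 differed by 0.21 (SE 0.12; limma adjusted p = 0.525). The list's smallest p-values belonged to the clock output factor Dbp (-0.52, SE 0.12; limma adjusted p = 0.139), the CREB coactivator Crtc2 (-0.52, SE 0.12; limma adjusted p = 0.144) and the heme-binding clock receptor Nr1d2 (-0.28, SE 0.09; limma adjusted p = 0.273); with array weights Dbp and Crtc2 passed (limma adjusted p = 0.0244 and 0.0185, where 3.38% of all genes passed), and with both arrays numbered 1 left out they differed by -0.52 and -0.67 (limma adjusted p = 0.0273 and 0.00325, where 7.24% passed).

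Of 20 measured genes for heme proteins, their electron donors and heme a synthesis, 7 had a higher and 13 a lower mean (median -0.07), beside 56.9% of all genes lower, and 0 passed. An unadjusted p under 0.05 was found for 6 of 20 (1 higher, 5 lower; 10.3% of all genes), and in 2 of 20 the groups did not overlap (4.42% of all genes). The smallest p-values were those of Cyp7a1, which starts bile acid synthesis (-0.46, SE 0.12; limma adjusted p = 0.206), Cyb5r3, the reductase of cytochrome b5 (-0.29, SE 0.09; limma adjusted p = 0.259), Cyc1, the heme subunit of respiratory complex III (0.27, SE 0.10; limma adjusted p = 0.319), and Cyp2b10, a drug-inducible P450 (-0.67, SE 0.27; limma adjusted p = 0.388). Cyp7a1 and Cyb5r3 passed with array weights (limma adjusted p = 0.0397 and 0.0307, where 3.38% of all genes passed). With both arrays numbered 1 left out they differed by -0.60 and -0.43 (limma adjusted p = 0.00519 and 0.00183, where 7.24% passed).

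Of 12 genes of iron handling 6 had a higher and 6 a lower mean (median 0.001), beside 56.9% of all genes lower, and 0 passed. The 2 of 12 with an unadjusted p under 0.05 (10.3% of all genes) were Ftl1, the light chain of the iron store ferritin (0.16, SE 0.06; limma adjusted p = 0.342), and Hfe, which takes part in iron sensing (0.22, SE 0.09; limma adjusted p = 0.407); in these 2 of 12 all knockout-labelled arrays lay above all controls (4.42% of all genes did not overlap). Next came Slc11a2, an iron importer (-0.20, SE 0.10; limma adjusted p = 0.497), and Tfr2, a transferrin receptor of hepatocytes (0.09, SE 0.08; limma adjusted p = 0.740).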

How the data were processed

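Liver RNA of 8 mice was measured on 1-colour Affymetrix Mouse Gene 1.0 ST arrays. The authors' deposited values are 1 log2 value per probe set and array; the submitters' processing notes name RMA, Affymetrix Expression Console and Partek without versions, and the log base was read from the range of the values. RMA equalises the arrays, so a change shared by most genes is not seen. Array medians ran from 6.90 to 7.03, and any pair of arrays had at most 18 equal values among 35556. Precision is limited by how few arrays there are, and since the labels do not say whether mice of a group were littermates or were handled together, p-values measure the spread between these samples only. The sources used here do not give the genome build of the array annotation.

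Gene symbols came from GEO's platform table, updated by Entrez identifier against RefSeq (GRCm38.p6; 21698 of 21789 single-symbol probe sets matched). A gene stands by its brightest single-symbol probe set. All 23410 named probe sets were fitted with limma 3.58.1 in R 4.3.3 (eBayes with a trend, equal weights) and adjusted by Benjamini-Hochberg; 0.05 was the threshold. The fit was tested on simulated data. Permutation tests are exact and two-sided.

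The 9 members and all lists were chosen with earlier results of these data known. Named were the members, Rictor, the 4 genes with the smallest p of each pathway list, and the 5 genes with the highest r to Alas1 or Hmox1 among named genes at or above the median level and SD. All other genes named were singled out after their values were seen. Alternatives were array weights, a replicate block, other variance settings, scalings and filters, and leaving out arrays.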

Additional observations from a re-analysis of the deposited data

Results flagged for a closer look

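Dixon's rule on groups of 4 was applied to both groups of 26 genes, 52 groups in all, of which chance marks about 1 in 20; it marked 2. In Fech, knockout-labelled array 1 read 10.91 while the other 3 arrays of its group lay between 10.75 and 10.76. In Ftl1, knockout-labelled array 3 read 13.91, with the others between 13.75 and 13.78.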

How the results depend on the processing

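None of the 162 fits of the 9 members over 18 alternatives passed the correction (limma adjusted p, and that of a per-gene test with unequal variances, from 0.188 to 0.999). With the replicate number as a block, a paired fit, Alas1 differed by -0.049 and 0 genes passed; same-numbered arrays deviated together with r from -0.13 to 0.0784, so the numbers were not taken as pairs, and no call changed. The sign turned in 10 of the 162 fits, all of small differences: Alas1 0.018 without control 3 (its values with single arrays left out ran from -0.11 to 0.018), Cpox from -0.16 to 0.06, Ppox from -0.10 to 0.07 and 0.021 with array weights, and Fech from -0.02 to 0.08 and -0.017 with array weights. The count of passing genes over the whole array was 0 with equal weights, 673 with array weights, 93 with control 1 left out, 838 with array 1 of the knockout-labelled group left out and 1443 with both left out, and from 0 to 1443 over all fits that leave arrays out; it was 0 in every other alternative. With all arrays and equal weights 2062 genes had an unadjusted limma p under 0.05, and the per-gene test also called 0. Medians moved without both arrays numbered 1 to -0.0037 for the other heme genes, -0.12 for the regulators and -0.030 for iron handling; centring the arrays moved no list median by more than its spread. Each member has 1 probe set, so the mean of several could not be tried.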
